A study of Saccharomyces cerevisiae BY4741 with 9 samples.

Results

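The 90 genes described here are protein-coding genes of chromosome I of budding yeast, the smallest of its nuclear chromosomes. They were selected on their level: of 119 protein-coding features that the deposited table places on chromosome I, 90 had a mean of at least 5 RPKM over the 6 libraries of the table and 29 did not. RPKM is the number of reads per kilobase of a feature for every 1000000 reads assigned to features. The table holds 7130 features in all, of which 5883 are protein-coding and reach the same mean. RNA was sequenced from the haploid strain BY4741, as wild type (WT) and with the allele scc2-4, 3 biological replicates each by the series' design. Cultures of both genotypes were harvested while growing exponentially in YPD with CSM, a rich medium with an amino acid supplement, when their optical density was 0.7. Neither the labels nor the design text give the growth temperature, the origin of the mutant strain or whether its libraries came from 1 clone. The mutant RNA was depleted of ribosomal RNA. WT RNA was split and sequenced with and without that depletion, and the table does not name the WT preparation, so its WT columns were taken as the depleted ones, which is an assumption behind each comparison with WT.

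Scc2 acts with Scc4 to load cohesin, the ring complex that holds sister chromatids together until they separate at anaphase, and the loader also takes part in gene regulation. Chromosome I carries genes for glycolysis, translation, secretion, cell division and DNA replication that have no function in common. In its outer regions lie few active genes and several members of subtelomeric families. An RNA library gives the level of transcripts in a whole culture, so a higher level in each cell and a larger share of cells with a high level cannot be told apart. The files hold RNA only, and the number of DNA copies of chromosome I in each culture was not measured.

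Each library held 14730000 to 21930000 reads assigned to features. Across the 6559 features with a mean of at least 1 RPKM, log2 values correlated at 0.990 to 0.993 between mutant libraries and at 0.993 between WT libraries 2 and 3. WT library 1 stood apart from them, at 0.977 and 0.968. Between genotypes the values ran from 0.904 to 0.973. WT library 3 correlated more closely with scc2-4 library 1 (0.973) and library 2 (0.970) than with WT library 1 (0.968). WT library 2 was closer to WT library 1 (0.977) than to any mutant library (at most 0.969). SCC2 itself was read at 7.68, 10.25 and 12.15 RPKM in WT and at 16.49, 17.87 and 17.92 RPKM in scc2-4, and its RNA level does not test the genotype labels. LEU2 and MET17, which are deleted in BY4741, were listed at 0 in all 6 libraries, and URA3 at 0 in all but scc2-4 library 2 (0.06 RPKM). The HIS3 allele of that strain lacks only a part of the gene, and it was read at 38.7 to 55.3 RPKM. Genes of mating type a were present in each library (STE2 at 248 to 499 RPKM), and STE3, specific to the other mating type, lay at 0.72 to 2.32 RPKM.

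In scc2-4 library 1 most chromosome I genes were read higher than in the other mutant libraries and in WT. RFA1, which encodes the largest subunit of the single-strand DNA-binding protein RPA, was read at 47.2, 45.5 and 47.3 RPKM in WT libraries 1, 2 and 3 and at 84.3, 47.98 and 51.1 RPKM in scc2-4 libraries 1, 2 and 3. ERV46, a cargo receptor gene of vesicles that leave the endoplasmic reticulum, was at 252, 285 and 269 RPKM in WT and at 497, 286 and 289.99 RPKM in scc2-4. In both genes scc2-4 library 1 was high, and the mutant libraries 2 and 3 lay close to the WT values. FUN26, a nucleoside transporter gene of the vacuole, had 78.1, 73.4 and 67.3 RPKM in WT and 135, 81.8 and 72.5 RPKM in scc2-4. SWD1, a gene of the COMPASS histone methyltransferase, had 52.9, 44.7 and 45.98 RPKM in WT and 76.6, 43.4 and 45.3 RPKM in scc2-4, again with scc2-4 library 1 well above the other 5 libraries.

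The deviation used below is the log2(RPKM + 1) value of a gene in scc2-4 library 1 minus the mean of its values in scc2-4 libraries 2 and 3, with each library centred on its median feature. The median deviation of the 90 genes was 0.64, which is 1.56-fold, with quartiles at 0.54 and 0.74. In RPKM without a log scale the median ratio was 1.63, with quartiles at 1.53 and 1.74. The 5793 other protein-coding genes at or above the same level had a median of -0.03, and 5% of them lay below -0.29 and 5% above 0.28. The quartiles of the chromosome I genes were 0.19 apart, and those of the other genes 0.20 apart. The deviation rests on 1 library, so no test was made of it, and it is described only, since it was known when the genes were chosen.

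Of the 90 genes, 84 (93.3%) lay at least 1.25-fold above the mean of the other mutant libraries in scc2-4 library 1, against 5.32% of the 5883 protein-coding genes of that level. Scc2-4 library 1 was above both other mutant libraries for 87 genes (96.7%), against 38.4%, and was the highest of all 6 libraries for 72 (80.0%), against 13.5%. Deviations were below 0 for 2 genes, 0 to 0.3 for 4, 0.3 to 0.5 for 9, 0.5 to 0.8 for 60, 0.8 to 1.0 for 12 and above 1.0 for 3. No use of strand in counting is stated, and 31 of the genes overlap another feature, so that their reads cannot be separated. For the 59 genes that overlap none, the median deviation was 0.64 as well.

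Set against the WT mean, the median of the chromosome I genes was 0.65 in scc2-4 library 1, 0.07 in library 2 and 0.02 in library 3. In WT libraries 1, 2 and 3 it was 0.02, 0.01 and -0.03. No library other than scc2-4 library 1 was more than 0.07 from the WT mean at the median. On the 14 chromosomes other than I and IX the medians over all 6 libraries ran from -0.09 to 0.13, and median deviations of scc2-4 library 1 from -0.05 to 0.02. On chromosome IX the medians were 0.70, 0.93 and 0.94 in scc2-4 libraries 1, 2 and 3, high in each mutant library.

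**Figure D1:**
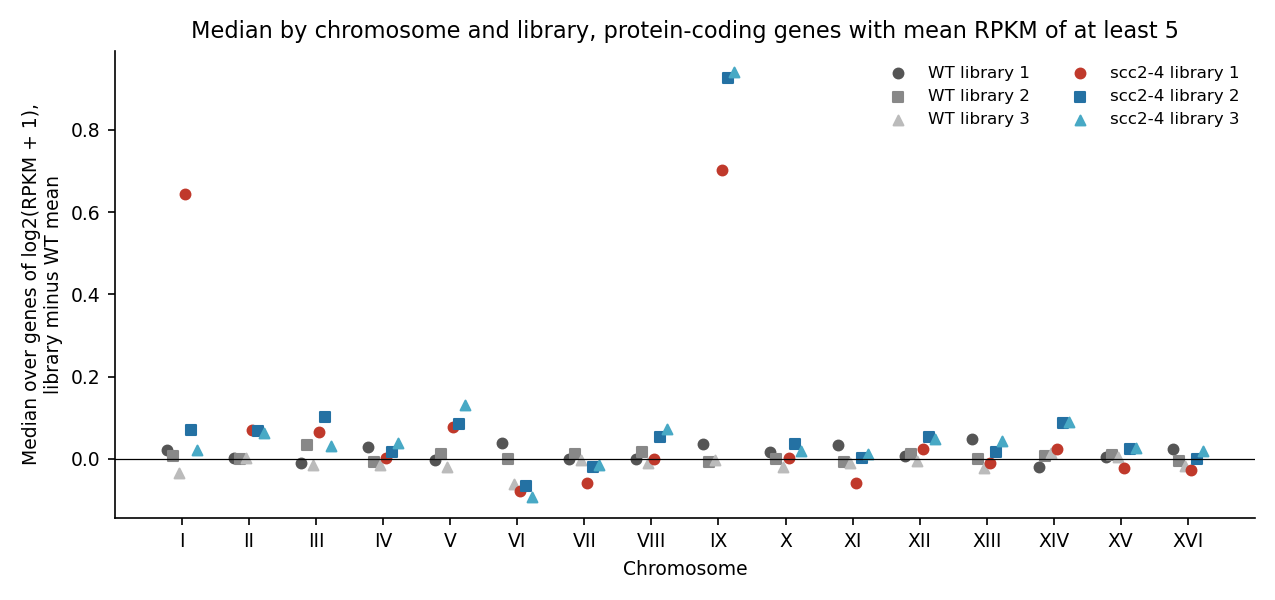
Median over protein-coding genes with a mean of at least 5 RPKM of log2(RPKM + 1), each library minus the WT mean (y axis), by chromosome (x axis), with 1 point per library. On chromosome I only scc2-4 library 1 is high, at 0.65, while on chromosome IX all 3 mutant libraries lie at 0.70 to 0.94.

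As a share of all reads assigned to protein-coding features, chromosome I took 2.54%, 2.501% and 2.41% in the WT libraries. In scc2-4 libraries 1, 2 and 3 it took 3.44%, 3.04% and 2.68%. Reads were added over features, so a read under 2 overlapping features can enter this share more than 1 time. This share was mostly CDC19, the pyruvate kinase gene, and the feature YAL037C-B that lies over it on the opposite strand. Without those reads the share was 1.11%, 0.938% and 0.895% in WT and 1.41%, 0.881% and 0.869% in scc2-4. The exact Clopper-Pearson 95% interval in scc2-4 library 1 ran from 1.41% to 1.42%, and in library 2 from 0.877% to 0.886%. Such intervals cover counting error only and take each read as counted 1 time. With those reads set aside, scc2-4 library 1 was above all WT shares, and mutant libraries 2 and 3 lay below them. Mutant library 2 was no longer below all WT shares when chromosome IX and the 50 features with most reads, CDC19 and YAL037C-B among them, were left out of all reads, with 1.31% against 1.29% in WT library 3.

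The excess in scc2-4 library 1 was present in each segment of the chromosome, though not in each gene. The last gene on the right, YAR053W, deviated by 0.07, and the overlapping CDC19 and YAL037C-B by -0.02 and -0.04. The genes extend from base 13363 to base 208663 of the 230218 bases of chromosome I in the sacCer3 build, and the centromere lies at chrI:151465-151582. The 70 genes of the left arm had a median deviation of 0.63 and the 20 of the right arm 0.64. In 7 consecutive segments of the chromosome, each of 10 to 16 genes, the median lay between 0.59 and 0.68. At the median, no segment of the chromosome was at the level of scc2-4 libraries 2 and 3.

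At the left end stood YAL064C-A (0.78), GDH3 (0.55), which encodes a glutamate dehydrogenase, and BDH2 (1.16), where values in brackets are log2 deviations of scc2-4 library 1. Next to them lay BDH1 (0.89), a butanediol dehydrogenase gene, ECM1 (0.58), a gene for export of the large ribosomal subunit, and CNE1 (0.52), the calnexin gene. Further in came ACS1 (0.91), which encodes an acetyl-CoA synthetase, FLC2 (0.65) and OAF1 (0.49), an activator gene of fatty acid oxidation. From there to CDC19 the deviations ranged from 0.44 (CYC3) to 0.90 (AIM2), with GEM1 (0.59), SPC72 (0.54), GCV3 (0.56), PTA1 (0.54), ERV46 (0.74) and CDC24 (0.61) between them. The middle of the left arm held RBG1 (0.69), FUN12 (0.57), MTW1 (0.89), POP5 (0.56), SNC1 (0.67), MYO4 (0.49), DRS2 (0.67), MAK16 (0.63) and PMT2 (0.58).

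The genes nearest the centromere were VPS8 (0.69) and TFC3 (0.66) on the left and NUP60 (0.51) and ERP1 (0.64) on the right. The right arm went on with SWD1 (0.73), RFA1 (0.71), SEN34 (0.73), BUD14 (0.67), ADE1 (0.52), KIN3 (0.65) and CDC15 (0.53). Beyond them lies a cluster of related membrane protein genes, UIP3 (0.74), YAR028W (0.66), YAR029W (0.37), PRM9 (0.36) and MST28 (0.73). Some of these have close relatives elsewhere, and their single values are uncertain. The last genes were SWH1 (0.45), an oxysterol-binding protein gene, YAR047C (0.78) and YAR053W (0.07).

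**Figure D2:**
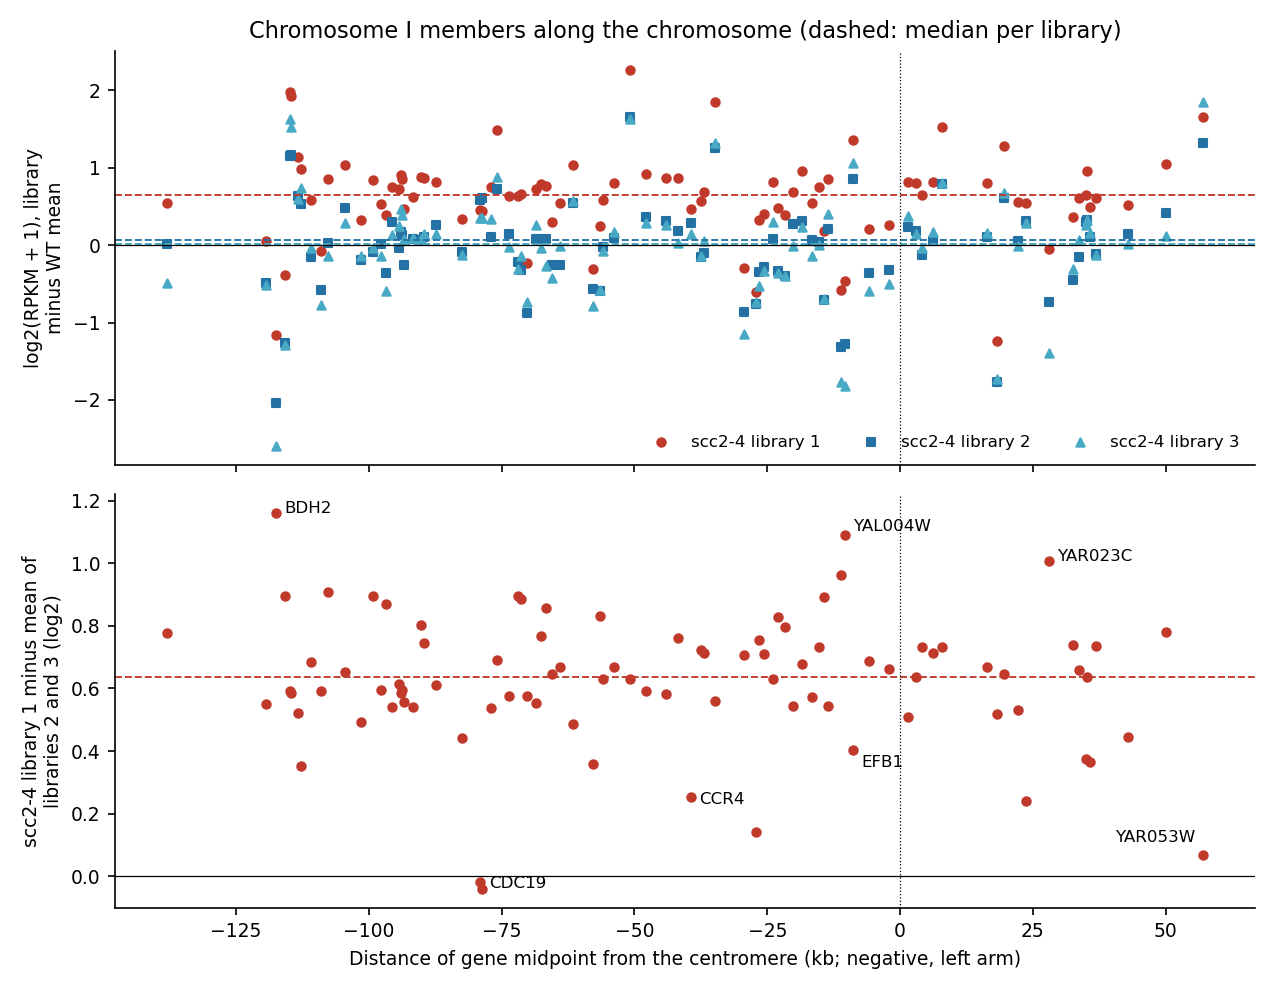
Upper panel: log2(RPKM + 1) in each scc2-4 library minus the WT mean (y axis) for the 90 genes, by distance of the gene's midpoint from the centromere in kb (x axis), with dashed lines at the library medians of 0.65, 0.07 and 0.02. Lower panel: the deviation of scc2-4 library 1 from the mean of libraries 2 and 3, which lies above 0 for all genes but CDC19 and the overlapping YAL037C-B, with a dashed line at the median of 0.64.

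A few genes deviated little or not at all. CDC19, the most highly read gene of the chromosome, had 4648, 5078 and 4852 RPKM in WT and 6713, 7203 and 6053 RPKM in scc2-4, so that scc2-4 library 1 lay between its mates. Its deviation was -0.02, and that of the overlapping YAL037C-B -0.04. CCR4, the gene for the main cytoplasmic deadenylase of mRNA, had 17.5, 17.4 and 18.6 RPKM in WT and 25.3, 21.9 and 19.2 RPKM in scc2-4, with a deviation of 0.25. EFB1, which encodes the nucleotide exchange factor of translation elongation factor 1, was at 0.40. Its values were 647, 943 and 980.02 RPKM in WT and 2185, 1507 and 1709.6 RPKM in scc2-4, and the small nucleolar RNA gene SNR18 lies within its intron.

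Low read numbers limited the precision of the other small deviations. YAR053W, a small reading frame near the right end, had 53, 48 and 48 reads in scc2-4 libraries 1, 2 and 3, and a ratio per read of 1.11 (95% exact interval 0.779 to 1.57). YAL016C-B (0.14) and YAR019W-A (0.24) are also small reading frames. For the ratio of read numbers in scc2-4 library 1 to the pooled libraries 2 and 3, an exact 95% interval covers counting error only. It was not computed for genes of other chromosomes, so it gives no comparison with them and is no test of the deviation. The interval held 1 or lay below it for CDC19, YAL037C-B, YAL016C-B, YAR019W-A, YAR029W and YAR053W. The 3 genes with deviations above 1.0 were BDH2, YAL004W, which overlaps SSA1, and YAR023C. Across the 90 genes the deviation had a Pearson correlation of -0.48 with the difference of scc2-4 libraries 2 and 3 from WT, as a description over genes, which share the same libraries and the term for libraries 2 and 3.

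Genes next to the selection limit give its effect. Just inside it lay FRT2 at a mean of 5.31 RPKM, YAR019W-A at 5.45 and YAR053W at 5.88, with deviations of 0.36, 0.24 and 0.07. Just outside were PAU7 at 4.94, YAL065C at 4.75 and YAL064W-B at 3.87, with deviations of -0.11, 0.49 and 1.11. All 29 protein-coding features below the limit together had 45.3, 35.2 and 38.4 reads per 1000000 in WT and 74.7, 49.98 and 41.5 in scc2-4, so scc2-4 library 1 was again the highest. CLN3, the G1 cyclin gene that sets the size at which cells enter the cell cycle, fell short of the limit, with 1.75, 1.71 and 1.72 RPKM in WT and 3.89, 3.32 and 3.27 RPKM in scc2-4.

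The deviation of scc2-4 library 1 was present in genes of different function, and no difference between the groups of genes was tested. Of 12 genes of the secretory pathway and its lipids, deviations ran from 0.45 (SWH1) to 0.83 (SYN8, an endosomal SNARE gene), with a median of 0.66. PMT2, a protein mannosyltransferase gene, had 158, 197 and 201 RPKM in WT and 341, 227 and 215 RPKM in scc2-4. ERP1, a gene of the p24 cargo proteins, had 344, 358 and 348 RPKM in WT and 618, 394 and 377 RPKM in scc2-4. DRS2, a lipid flippase gene, was at 54.2, 60.98 and 60.9 RPKM in WT and 104, 62.3 and 64.5 RPKM in scc2-4. In each of these genes scc2-4 library 1 was above all 5 other libraries.

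The 7 genes of chromatin, replication and repair had a median deviation of 0.71, from 0.56 (FUN30, a chromatin remodeller gene) to 0.83 (SAW1, a repair gene). The 5 of the kinetochore, spindle and mitotic exit lay between 0.53 and 0.89. MTW1, a kinetochore subunit gene of the MIND complex, had 14.4, 11.8 and 13.2 RPKM in WT and 21.5, 10.2 and 11.5 RPKM in scc2-4. CDC15, a protein kinase gene of the mitotic exit network, was at 6.43, 5.26 and 5.86 RPKM in WT and 9.15, 6.04 and 5.61 RPKM in scc2-4. The 5 mitochondrial genes ran from 0.44 (CYC3, the heme lyase gene of cytochrome c) to 0.89 (FUN14). The 5 genes of RNA processing and turnover ran from 0.25 (CCR4) to 0.77 (PRP45, a splicing factor gene).

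In metabolism, the amino acid, one-carbon and purine genes GDH3, GCV3, CYS3 and ADE1 were within 0.52 to 0.56. CYS3, which makes cysteine from cystathionine, had 216, 194 and 180.04 RPKM in WT and 319, 236 and 190.2 RPKM in scc2-4. GCV3, which encodes the H protein of glycine cleavage, had 334, 201 and 159 RPKM in WT and 310.1, 183 and 228 RPKM in scc2-4. Carbon metabolism had the widest range, from -0.02 in CDC19 to 1.16 in BDH2. The 4 signalling genes GPB2, GIP4, PSK1 and TPD3 lay between 0.65 and 0.71. TPD3, the scaffold subunit gene of protein phosphatase 2A, had 137, 122 and 122 RPKM in WT and 169.7, 103 and 97.9 RPKM in scc2-4.

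Partners of chromosome I proteins encoded on other chromosomes did not stand high in scc2-4 library 1. In 26 complexes or pathways, the 29 subunits or enzymes from chromosome I had a median deviation of 0.59, from 0.25 to 0.89, and 28 were at least 1.25-fold up. The 107 partners from other chromosomes had a median of -0.03, from -0.45 to 0.37, with 1 at least 1.25-fold up. The genes of chromosome IX had a median deviation of -0.18, and the 102 partners outside it ran from -0.41 to 0.37, with a median of -0.03. In each of the 26, every chromosome I subunit had a larger deviation than every partner measured. RFA1 (0.71) stood above RFA2 (0.08) and RFA3 (-0.20), the other subunits of RPA. MTW1 (0.89) stood above NSL1 (0.04), NNF1 (0.14) and DSN1 (-0.21), of which DSN1 lies on chromosome IX. SEN34 (0.73), a subunit gene of the tRNA splicing endonuclease, was above SEN2 (-0.01), SEN15 (0.22) and SEN54 (-0.12). The smallest gap was in the ERMES tethers between mitochondria and endoplasmic reticulum, with MDM10 at 0.57 and MDM12 at 0.37. These partner lists were chosen with the deviation of chromosome I known.

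**Figure D3:**
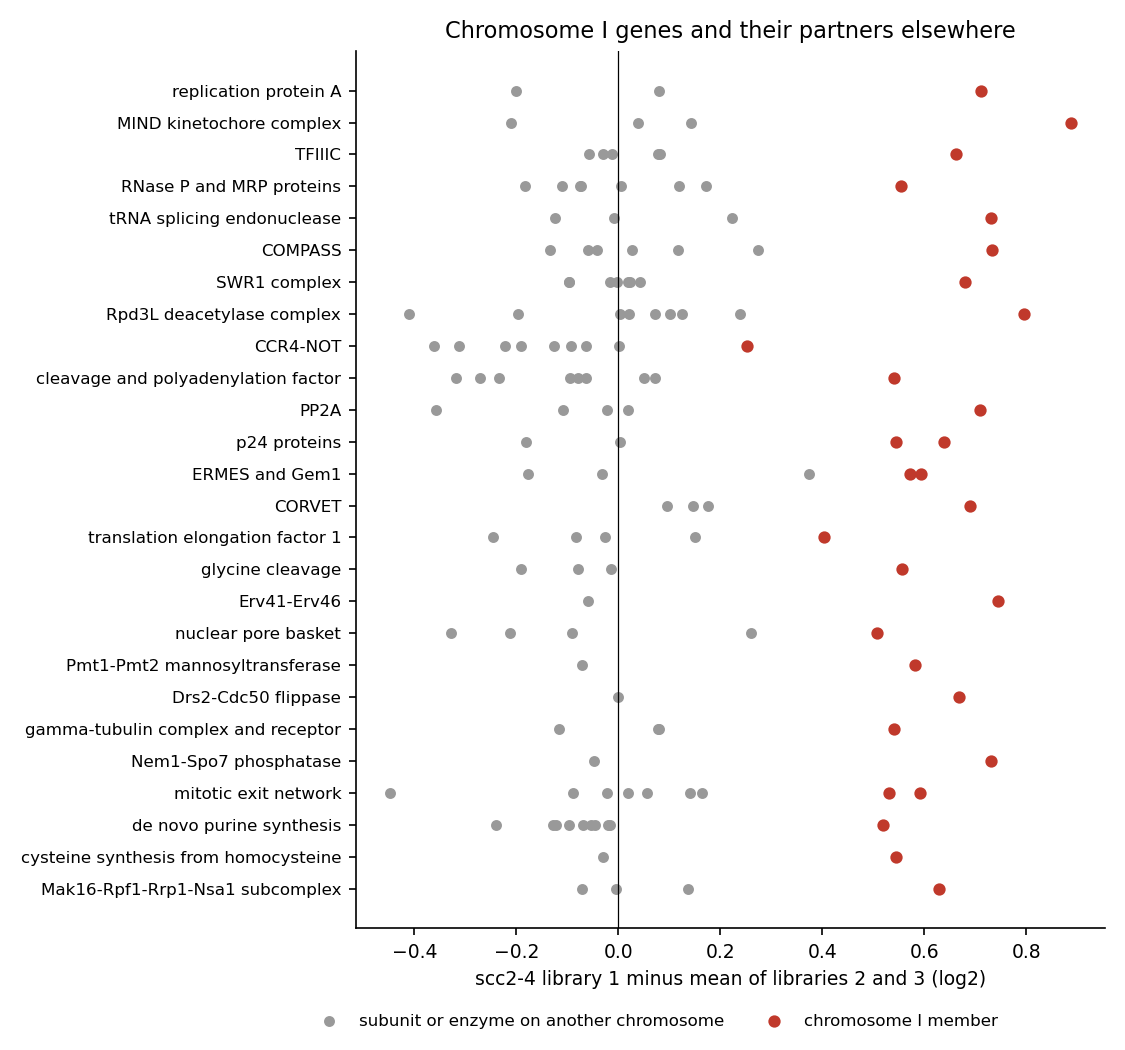
Deviation of scc2-4 library 1 from the mean of scc2-4 libraries 2 and 3 in log2 (x axis) for chromosome I genes and for their partners on other chromosomes, by complex or pathway (y axis), with 1 point per gene. Each chromosome I gene lies to the right of its partners, at 0.25 to 0.89 against at most 0.37.

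Close relatives on other chromosomes had lower deviations than the chromosome I gene in all pairs compared except CDC19 and PYK2. They ranged from -0.22 (GPB1, beside GPB2) to 0.42 (YOR338W, beside FUN19 at 0.58), and YOR338W was read below 5 RPKM in the mean. SSA2, which encodes an Hsp70 chaperone and is 96.9% identical to SSA1 over aligned bases, had a deviation of -0.10 against 0.96 for SSA1. Its values were 775, 1034 and 1065 RPKM in WT and 830.2, 876 and 853 RPKM in scc2-4. ACS2 was at -0.04 beside ACS1 (0.91), RBG2 at -0.12 beside RBG1 (0.69), and PMT3 at -0.10 beside PMT2 (0.58). PYK2, the minor pyruvate kinase gene, was at 0.23, above CDC19 (-0.02). BDH1 and BDH2 are neighbours on chromosome I and 69.5% identical, and both were high, at 0.89 and 1.16.

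The comparison of genotypes asks which transcripts differed between scc2-4 and WT, and scc2-4 library 1 enters it as 1 of 3 mutant libraries. Of the 90 genes, 14 (15.6%) rose and 6 (6.67%) fell in scc2-4 at an adjusted p of 0.05 in limma, and 70 did not pass. Over all 6559 features tested, 17.5% rose and 15.0% fell. These shares include chromosome IX, where 160 of 213 protein-coding genes with a mean of at least 5 RPKM rose and 4 fell. YAR053W, which rose, and FRT2, which fell, reached the selection level through the genotype in which they were read higher, with means of 2.42 ± 0.558 RPKM in WT and 9.35 ± 1.77 in scc2-4 for YAR053W and of 6.53 ± 1.46 and 4.09 ± 0.928 for FRT2. Without them 13 genes rose and 5 fell. For 38 of the genes (42.2%) all mutant values lay on one side of all WT values, against 54.5% of all features. The median difference over the genes was 0.25 in log2, and 0.05 over all features. Without scc2-4 library 1 the median was 0.04, with 7 genes (7.78%) higher and 8 (8.89%) lower, against 7.90% and 7.93% of all features in the same fit. In that fit 5 of the 8 were also among the 6 that fell with all libraries.

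**Figure D4:**
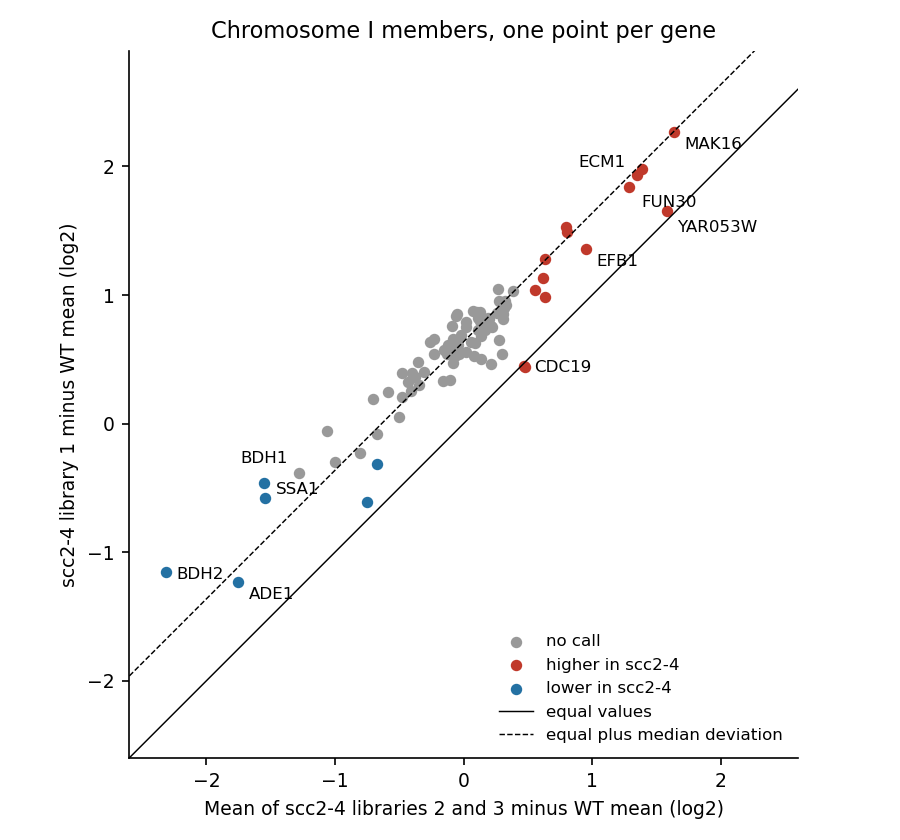
Difference from the WT mean in log2(RPKM + 1) for the 90 genes, in scc2-4 library 1 (y axis) against the mean of scc2-4 libraries 2 and 3 (x axis), with 1 point per gene coloured by the limma call. Most points lie above the line of equal values, by 0.64 at the median (dashed line) and by more for BDH2 and SSA1 at the left, while CDC19 and YAR053W lie on or near the line of equal values.

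Genes of translation and ribosome assembly made up 4 of the 14 that rose, out of 5 in that group. MAK16, an assembly factor gene of the large ribosomal subunit, had 10.8, 18.4 and 21.8 RPKM in WT and 83.6, 53.04 and 51.2 RPKM in scc2-4, with no overlap between the genotypes. It rose 3.60-fold, from 17.01 ± 5.67 to 62.6 ± 18.2 RPKM, where each error is an SD over 3 libraries (limma adjusted p = 0.00742). ECM1 had 23.9, 38.5 and 51.7 RPKM in WT and 143, 81.8 and 104 RPKM in scc2-4, and rose 2.91-fold (limma adjusted p = 0.0151). It overlaps YAL059C-A, which was called with it. RBG1, a gene for a GTPase that binds translating ribosomes, had 36.2, 58.3 and 59.96 RPKM in WT and 145, 83.2 and 90.7 RPKM in scc2-4. RBG1 rose 2.05-fold (limma adjusted p = 0.0312), and its relative RBG2 on chromosome VII had a log2 difference of 0.99 (limma adjusted p = 0.0158). EFB1 rose 2.12-fold, from 857 ± 183 to 1801 ± 348 RPKM (limma adjusted p = 0.0150). The member of the group that did not pass was FUN12, the gene for initiation factor 5B, with 90.8, 106 and 91.3 RPKM in WT and 151, 105 and 91.8 RPKM in scc2-4.

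Partners of MAK16 in ribosome assembly also rose. RPF1, RRP1 and NSA1 had log2 differences of 0.62, 0.65 and 0.71 (limma adjusted p = 0.0160, 0.0297 and 0.0192), against 1.85 for MAK16. In the mean of scc2-4 libraries 2 and 3 alone the difference from WT was 1.64 for MAK16 and 0.57, 0.65 and 0.73 for the others. WT library 1 was the lowest WT library for MAK16, ECM1, RBG1 and EFB1.

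Of the other genes that rose, FUN30 had 8.34, 13.8 and 16.9 RPKM in WT and 48.1, 30.9 and 31.8 RPKM in scc2-4, a 2.77-fold rise (limma adjusted p = 0.0123). SEN34 had 12.2, 12.04 and 12.7 RPKM in WT and 37.9, 21.9 and 21.6 RPKM in scc2-4, and rose 2.06-fold (limma adjusted p = 0.0120). Its WT values were nearly equal, and each mutant library lay above all of them. KIN3, a protein kinase gene related to NIMA, rose 1.80-fold to 39.9 ± 11.97 RPKM (limma adjusted p = 0.0156). CNE1, which overlaps YAL056C-A, rose 1.73-fold to 27.02 ± 6.68 RPKM (limma adjusted p = 0.0129). MYO4, a myosin gene for transport of mRNA into the bud, rose 1.64-fold to 43.2 ± 9.84 RPKM (limma adjusted p = 0.0210). YAR053W had 2.06, 2.13 and 3.06 RPKM in WT and 9.78, 7.40 and 10.9 RPKM in scc2-4 (limma adjusted p = 0.00325), with scc2-4 library 1 between its mates. CDC19 rose 1.38-fold, from 4859 ± 215 to 6656 ± 577 RPKM (limma adjusted p = 0.0330).

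**Figure D5:**
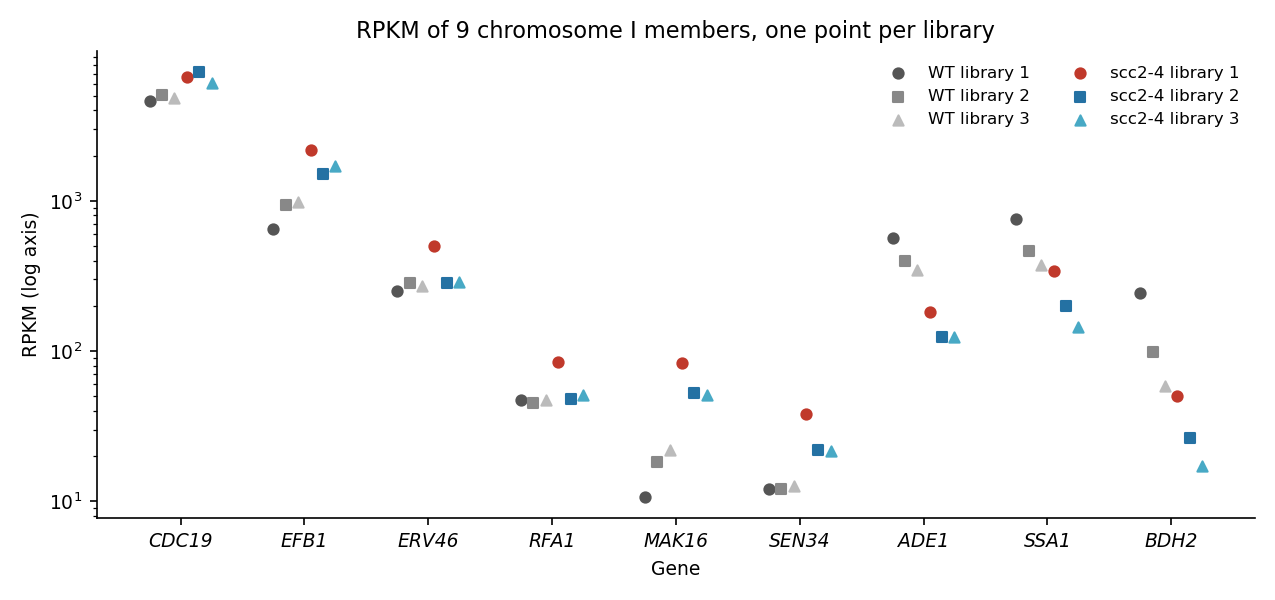
RPKM on a log axis (y axis) for 9 genes of chromosome I (x axis), with 1 point per library. In RFA1 and ERV46 only scc2-4 library 1 stands out, in MAK16 and SEN34 all mutant libraries lie above WT with library 1 the highest, and in ADE1, SSA1 and BDH2 all lie below WT with library 1 nearest to it.

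In each of the 6 genes that fell, scc2-4 library 1 was the mutant library nearest to WT. ADE1, an enzyme gene of purine synthesis, had 568, 399 and 345 RPKM in WT and 183, 123 and 124 RPKM in scc2-4. It fell 2.99-fold, from 437 ± 116 to 144 ± 34.3 RPKM (limma adjusted p = 0.00358). The 9 other measured genes of the pathway lie on other chromosomes and had log2 differences from -3.22 (ADE17) to -0.18 (ADE16), and all but ADE16 (limma adjusted p = 0.180) passed as lower. Scc2-4 library 1 deviated by 0.52 in ADE1 and by at most -0.02 in those 9.

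BDH2 had 243, 98.8 and 58.7 RPKM in WT and 50.5, 26.3 and 17.3 RPKM in scc2-4, so that the WT libraries spread over a wide range. It fell 3.81-fold in the fitted comparison (limma adjusted p = 0.0312). BDH1 had 314, 144 and 108 RPKM in WT and 132, 69.7 and 66.9 RPKM in scc2-4, the genotypes overlapped, and it did not pass (limma adjusted p = 0.0922). Without WT library 3 BDH1 passed as lower (limma adjusted p = 0.0426). Over all alternatives its limma adjusted p ran from 0.00667, with a replicate block, to 0.242. SSA1, which encodes a cytosolic Hsp70 chaperone, had 755, 461 and 372 RPKM in WT and 342, 200.03 and 144 RPKM in scc2-4. It fell 2.33-fold (limma adjusted p = 0.0322) together with YAL004W, a reading frame on the opposite strand whose reads cannot be told from its own. SSA1 and SSA2 are near-identical, which makes the single values uncertain, and SSA2 had a log2 difference of -0.14 (limma adjusted p = 0.535). FRT2 and YAL016C-B, with 4.09 ± 0.928 and 7.25 ± 0.624 RPKM in the mutant, also fell (limma adjusted p = 0.0473 and 0.00492).

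Calls for MAK16, FUN30, SEN34, KIN3, CNE1, YAL056C-A, YAR053W, ADE1 and YAL016C-B held in all alternatives in which each was fitted, with limma adjusted p of at most 0.0473. YAR053W is among them although it reached the selection level only through its scc2-4 values. So is YAL016C-B, with only 27, 28 and 19 reads in scc2-4 libraries 1, 2 and 3, a limit that no alternative changes. Other calls ended when a library was left out, and the lowest adjusted p over the alternatives is given beside those that missed the threshold. Fits without a mutant library called 760 to 1038 features in all, against 2133 with all libraries. The log2 differences with 1 library left out were 0.39 to 0.51 for CDC19 (against 0.46 with all), 0.76 to 1.19 for RBG1 (1.03), 0.56 to 0.80 for MYO4 (0.72), 1.21 to 1.81 for ECM1 (1.54) and 0.85 to 1.22 for EFB1 (1.09). The calls on CDC19 and YAL037C-B ended whichever library was left out, with limma adjusted p of up to 0.123 and 0.130 (lowest 0.0213 and 0.0239). RBG1 ended without scc2-4 library 1, 2 or 3 (limma adjusted p = 0.0879, 0.0613 and 0.0781) and without WT library 2 (0.0517, lowest 0.0262). MYO4 ended without scc2-4 library 1, 2 or 3 (limma adjusted p = 0.0544, 0.0517 and 0.0542, lowest 0.0190). ECM1, YAL059C-A and EFB1 ended without scc2-4 library 1 (limma adjusted p = 0.0535, 0.0678 and 0.0545) and without library 3 (0.0570, 0.0713 and 0.0560), with lowest values of 0.00607, 0.00817 and 0.00540.

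Among the genes that fell, log2 differences with 1 library left out were -1.42 to -2.37 for BDH2, -0.95 to -1.54 for SSA1, -0.87 to -1.55 for YAL004W and -0.44 to -0.67 for FRT2. The calls on BDH2, SSA1 and YAL004W ended without scc2-4 library 2 (limma adjusted p = 0.0975, 0.102 and 0.121), without library 3 (0.104, 0.0993 and 0.116) and without WT library 2 (0.0666, 0.0683 and 0.0849). YAL004W also ended without WT library 1 (0.0640) and without centring. The lowest values of the 3 were 0.00156, 0.00278 and 0.0050, each from the fit with a replicate block. Whether the numbers pair the libraries in that fit was not settled. FRT2 ended without any 1 library other than WT library 3. It also ended without centring, with centring on features outside chromosomes I and IX, with a pseudocount of 0.1 and without overlapping features. Its limma adjusted p ran from 0.0226, with a replicate block, to 0.148 over all alternatives. The 3 genes that passed as lower without scc2-4 library 1 and not with all libraries were SAW1 (0.0225, against 0.308 with all libraries), PSK1 (0.0496, against 0.0671) and YAR023C (0.0343, against 0.111).

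Upstream sequence was searched for short elements known from ribosome assembly, purine and stress genes. It is printed for 5 of the genes that passed, which were chosen after their matches were seen and not by the size of their difference. The windows run from 350 to 101 bases before the start codon, in sacCer3, on the strand of the gene, and were found for 73 of the 90 genes in the RefSeq annotation. Capitals mark matches, on either strand, to GATGAG (the PAC element) and AAAATTTT (RRPE), both known from ribosome assembly genes, TGACTC (the core bound by Bas1 and Gcn4) and AGGGG (the stress response element). Matches to different elements do not overlap in the windows printed. Counted over 5987 windows of the same length and position, 15.95% held GATGAG, 8.30% AAAATTTT, 7.10% TGACTC and 20.1% AGGGG. Among the 73 windows of chromosome I genes, 17, 6, 6 and 15 did. MAK16 (chrI:101246-101495, minus strand) and RBG1 (chrI:76253-76502, minus strand) are shown as genes that rose, and ADE1 (chrI:169025-169274, plus strand), SSA1 (chrI:141532-141781, minus strand) and BDH2 (chrI:33098-33347, plus strand) as genes that fell.
MAK16: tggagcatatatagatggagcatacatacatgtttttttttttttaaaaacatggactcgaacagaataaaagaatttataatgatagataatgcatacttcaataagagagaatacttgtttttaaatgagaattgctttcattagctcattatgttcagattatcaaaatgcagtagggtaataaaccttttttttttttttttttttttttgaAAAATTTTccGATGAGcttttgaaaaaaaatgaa
RBG1: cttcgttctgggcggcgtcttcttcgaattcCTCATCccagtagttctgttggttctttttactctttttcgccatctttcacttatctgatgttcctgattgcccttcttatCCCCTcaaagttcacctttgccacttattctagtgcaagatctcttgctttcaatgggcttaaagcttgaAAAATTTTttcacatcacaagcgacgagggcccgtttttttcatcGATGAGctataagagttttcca
ADE1: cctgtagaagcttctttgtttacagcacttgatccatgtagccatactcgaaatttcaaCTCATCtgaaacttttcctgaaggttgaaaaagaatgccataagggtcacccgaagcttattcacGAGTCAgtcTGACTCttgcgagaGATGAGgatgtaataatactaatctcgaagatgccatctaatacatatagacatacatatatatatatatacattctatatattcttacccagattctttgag
SSA1: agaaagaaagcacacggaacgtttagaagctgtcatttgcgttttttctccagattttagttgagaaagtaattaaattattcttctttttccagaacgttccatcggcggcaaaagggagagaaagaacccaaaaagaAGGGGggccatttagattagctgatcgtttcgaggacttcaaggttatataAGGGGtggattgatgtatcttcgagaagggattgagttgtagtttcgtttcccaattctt
BDH2: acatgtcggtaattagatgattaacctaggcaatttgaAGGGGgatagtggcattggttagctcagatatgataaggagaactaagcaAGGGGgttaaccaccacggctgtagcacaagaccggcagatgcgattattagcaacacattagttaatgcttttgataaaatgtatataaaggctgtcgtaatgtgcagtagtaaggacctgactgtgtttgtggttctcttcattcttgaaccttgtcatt
In MAK16 the match to AAAATTTT began 134 bases before the start codon and was followed by GATGAG at 124 bases. RBG1 had AAAATTTT at 167 bases and GATGAG at 122 bases, and another match to GATGAG at 319 bases, where the window runs into the start of FUN12 on the other strand. RBG1 also held AGGGG at 237 bases. ADE1 held TGACTC on both strands, at 226 and 217 bases, and GATGAG at 291 and 203 bases. SSA1 held AGGGG at 211 and 160 bases, and BDH2 at 312 and 262 bases. Both directions were represented among the matches, since GATGAG also lay upstream of FRT2, which fell, and AGGGG upstream of ECM1 and CDC19, which rose. ECM1 held neither GATGAG nor AAAATTTT in this window. SEN34 and KIN3, which rose, held none of the 4 elements in this window. A match is a description of the letters and not a measured binding site.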

How the data were processed

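RNA levels were measured by sequencing. The aligner was Bowtie and the build sacCer3, per the submitters' processing notes. No counting tool is named there. The authors deposited RPKM for 7130 features. RPKM times feature span summed to 1000000 in each library, so they are relative to reads assigned to features. All low values were whole reads within 0.1, which gave the depths. The 3 WT total RNA libraries were not analysed here.

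On the log2(RPKM + 1) scale, the median over features was subtracted from each library. The 6559 features with a mean of at least 1 RPKM were kept, among them all 90 genes. The genotype test was limma 3.58.1 under R 4.3.3 (trend, no replicate block), with Benjamini-Hochberg adjustment over all 6559 features and a threshold of 0.05. Fold changes are on the log2(RPKM + 1) scale and understate changes of low genes. The fit was tested on simulated data with independent noise of equal size in all libraries. Those data held no shift of a chromosome in 1 library, so that test does not cover such a shift. Alternatives changed the pseudocount, filter, centring, trend, block and overlapping features, and left out each library. Python 3.11.15 was used for the rest. Genes were named if on a role or partner list, among the largest deviations or smallest adjusted p, or at the chromosome ends, the centromere or the selection limit. The members, lists and motifs were chosen with earlier results of these data known. The replicates are separate by the series' design only, so p-values may measure technical spread.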

Additional observations from a re-analysis of the deposited data

How the results depend on the processing

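The median deviation of scc2-4 library 1 was 0.56 with a pseudocount of 5 and 0.68 without centring, against 0.64, and it was 0.63 to 0.66 in the other planned settings. Taken against a single mutant library, chosen after seeing the data, it was 0.64 to 0.65. The count of all features called, 2133, ranged from 760 to 2436 when 1 library was left out. The count of chromosome I genes that rose, 14, ranged from 7 to 13 without 1 library (7.78% to 14.4%). The count that fell, 6, ranged from 2 to 8 (2.22% to 8.89%). In the same fits 11.6% to 37.1% of all features were called in either direction. Shares of all features by direction were counted only with all libraries and without scc2-4 library 1. With overlapping features left out, only the 59 genes that overlap none were fitted. Of these 8 rose and 3 fell, and 1761 features were called in all, in either direction. Genes absent from that fit are not calls that were lost. The median genotype difference ranged from 0.04 to 0.38 without 1 library.

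Same-numbered WT and mutant libraries had correlations of deviations of 0.31, -0.06 and 0.35 across features. Differently numbered ones ran from -0.40 to 0.26, so whether the numbers pair the samples was not settled. A fit with a replicate block called 2341 features, with 16 of the chromosome I genes higher, 12 lower and a median of 0.25. BDH1 passed as lower in it (limma adjusted p = 0.00667) and the call on RBG1 ended (0.0529).

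The share of protein-coding reads on chromosome I was 1.54%, 1.36% and 1.29% in WT and 2.06%, 1.31% and 1.27% in scc2-4 without chromosome IX and the 50 features with most reads. Without CDC19 and YAL037C-B, left out after seeing the data, it was 1.11%, 0.938% and 0.895% in WT and 1.41%, 0.881% and 0.869% in scc2-4. Over 36 chromosome I genes with a genotype difference given or near the threshold, 500 of 561 values kept their side of the threshold, 46 lost the call, 15 gained it and 0 turned direction. The cause of each of these moves was not tested, other than that fits without a library hold fewer samples. Depth limited small reading frames, as YAR053W with 48 to 53 reads in the mutant libraries.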

Other observations

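The non-coding genes HRA1 and SNR18 of chromosome I were also read highest in scc2-4 library 1. HRA1, a non-coding RNA gene, had 57.99, 60.7 and 59.4 RPKM in WT and 98.96, 58.7 and 64.96 RPKM in scc2-4. It overlaps DRS2, so its reads cannot be separated from those of that gene. SNR18, a small nucleolar RNA gene in the intron of EFB1, had 86.03, 134 and 104 RPKM in WT and 189, 110.2 and 157 RPKM in scc2-4. The transfer RNA genes of chromosome I had at most 3 reads in any library.

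Elements outside the nuclear chromosomes also differed between the mutant libraries. The 4 genes of the 2-micron plasmid, which yeast carries in many copies, had 1685, 1114 and 1772 reads per 1000000 in WT and 2085, 1079 and 749 in scc2-4, so that scc2-4 library 1 was 2.28-fold above the mean of libraries 2 and 3. FLP1, its recombinase gene, had 473, 304 and 505 RPKM in WT and 521, 254 and 165 RPKM in scc2-4. Features of the mitochondrial genome together took 38240, 29150 and 39550 reads per 1000000 in WT and 43780, 34010 and 33640 in scc2-4, which is 1.29-fold in scc2-4 library 1 over its mates. The WT libraries also differed among themselves in both, with WT library 2 the lowest. Whether these levels have a part in the deviation of chromosome I was not tested.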
